A study of Mus musculus with 9 samples.

Results

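The genes followed here build triglyceride and load it onto very low density lipoprotein (VLDL) in mouse liver: Gpam, Agpat2, Lpin1, Lpin2, Dgat1, Dgat2, Mogat1, Pnpla3, Mttp and Tm6sf2. They were taken by name from GENCODE M21, and all 10 of 10 were found among the 54532 gene IDs of the count table. Liver RNA was sequenced from 9 mice labelled as male ApoE-/- of the C57BL/6 background, with 3 libraries in each of 3 groups. The HFD + IgG1 mice received a high-fat diet for 20 weeks from 4 weeks of age, then chow for 1 week, then recombinant human IgG1 (3 mg, intraperitoneal) at 25, 26 and 27 weeks, and were killed at 29 weeks. The HFD + PBS mice had the same diet and ages and were given PBS instead. The normal diet mice are labelled with the same Apoe deletion, and the sources used here do not give their age at death or any injections. Comparisons with the normal diet group therefore cannot tell diet from age at death or injection. The livers sequenced had been picked by Oil Red O staining and triglyceride (TG) assay, a choice that bears on genes of triglyceride synthesis and was not random. The target of the antibody is not named, and the individual labels of HFD + IgG1 replicates 6 and 7 read IgG2 and IgG3.

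Liver makes triglyceride by adding fatty acyl chains to glycerol 3-phosphate, removing the phosphate to give diacylglycerol and adding a last acyl chain. The product is stored in droplets or handed to apolipoprotein B in the endoplasmic reticulum, which starts a VLDL particle that is enlarged and secreted. Insulin, acting through SREBP-1c, raises Gpam, and fasting hormones raise Lpin1.

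Library totals ran from 16215194 to 18538463 counts. Of the 9 libraries, 3 went against their labels. HFD + IgG1 replicate 5 had 235888 Apoe counts where the others had 225 to 1655, and HFD + PBS replicate 6 and normal diet replicate 5 had 10970 and 17065 counts of Xist and 0 counts over 4 Y-linked genes, which allows up to 3. These are called the 3 discordant libraries, and some member, Apob and Srebf1 results and most list counts below are also given without them. The Lpin1 and Tm6sf2 fold changes and the member counts without overlap are not. Hepatocyte markers were abundant in every library. Of the 10 hepatocyte markers all had counts, with a summed level of 101166 to 172932 CPM (counts of a gene relative to the TMM-scaled library size) in HFD + IgG1, 60198 to 120508 CPM in HFD + PBS and 87436 to 94154 CPM in normal diet. Alb made up most of each sum. In HFD + IgG1 against HFD + PBS the edgeR log2 fold changes of these markers ran from -0.75 (Tat) to 0.96 (Alb), with Ahsg, Fgb and Trf also negative. Bulk RNA cannot tell fewer cells of a type from less RNA per cell.

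No gene of the 10 passed edgeR's test after adjustment over all 14763 genes tested, and 0 genes of the whole table did in any of the 3 comparisons (0% called, each). Of the 10 genes, 8 passed the filter on low counts and were tested, while Mogat1 and Pnpla3 did not. Between HFD + IgG1 and HFD + PBS, the acyltransferase genes Gpam, Agpat2 and Dgat2 and the lipid transfer gene Mttp had all 3 antibody livers above all 3 PBS livers. That made 4 of 8 tested genes without overlap and higher, against 15.3% of all genes tested, and the same 4 had an unadjusted edgeR p under 0.05, against 12.6% higher and 24.2% in either direction of all genes tested. DESeq2 called 1 of them, Gpam, and limma-voom called 0. DESeq2 also called other genes in each of the 3 comparisons, and its totals over all genes tested are given at the end. Without HFD + IgG1 replicate 5 or without HFD + IgG1 replicate 7 the count at an unadjusted p under 0.05 was 1, and it was 0 without the 3 discordant libraries. The shares of all genes tested also fell in these refits. In that order they were 5.28% higher and 5.92% lower, 6.68% and 5.92%, and 4.08% and 4.32%.

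Between HFD + PBS and normal diet, Mttp and Gpam were lower without overlap (2 of 8, against 15.3% of all genes tested) and Lpin1 and Dgat2 were higher without overlap (2 of 8, against 13.0%). At an unadjusted edgeR p under 0.05, Lpin1 was higher and Mttp lower, against 9.41% higher, 11.4% lower and 20.8% in either direction of all genes tested. DESeq2 called 1 gene, Mttp, and limma-voom called 0. That count of 2 was 1 without normal diet replicate 4 or without normal diet replicate 6, and 5 without HFD + IgG1 replicate 6, which lies outside the comparison but shares the estimate of spread. In these refits, in that order, the shares of all genes tested were 6.44% higher and 7.19% lower, 6.40% and 8.63%, and 11.9% and 12.2%.

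Between HFD + IgG1 and normal diet, Dgat2 was higher (1 of 8, against 5.54% of all genes tested) and Lpin2 lower (1 of 8, against 6.41%) without overlap. Both had an unadjusted edgeR p under 0.05, against 3.83% higher, 3.21% lower and 7.04% in either direction of all genes tested. DESeq2 called 1 gene, Dgat2, and limma-voom called 0. The median log2 fold change of the 8 tested genes was 0.14 for HFD + IgG1 against HFD + PBS, 0.20 for HFD + IgG1 against normal diet and -0.15 for HFD + PBS against normal diet, beside 0.04, 0.0033 and -0.0028 over all genes tested. HFD + IgG1 against HFD + PBS and HFD + PBS against normal diet share the HFD + PBS livers, so opposite signs in those comparisons are not independent.

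**Figure D1:**
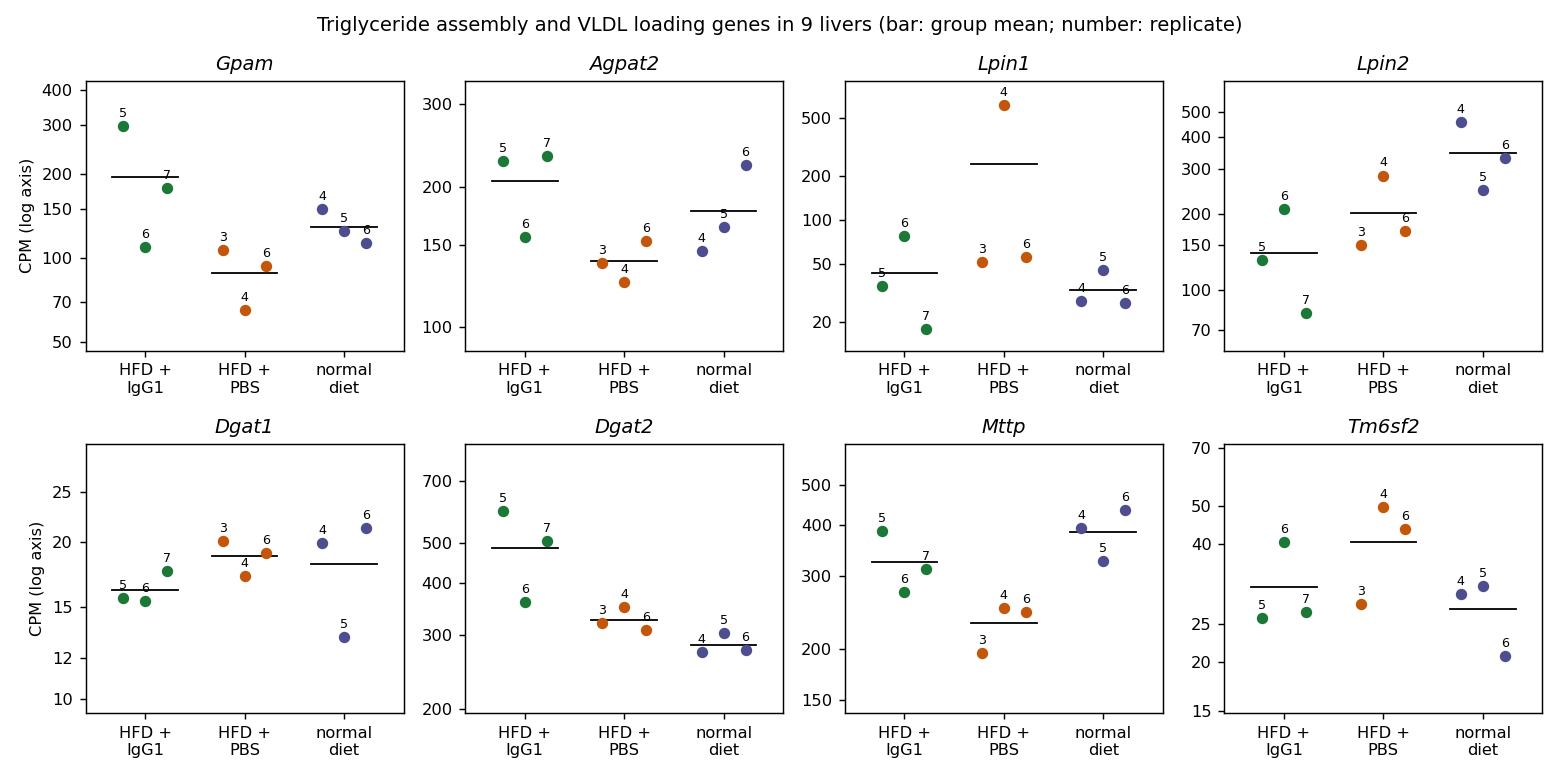
CPM (log axis, 1 scale per gene) of the 8 tested genes in each of the 9 livers, with points for libraries, replicate numbers above them and bars for group means. Gpam, Agpat2, Dgat2 and Mttp had all HFD + IgG1 points above all HFD + PBS points, and Lpin1 had 1 point at 617 CPM in HFD + PBS replicate 4.

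Divided by union exon length, the mean level over the 9 livers ran in the order Dgat2 (119 CPM per kb), Agpat2 (81.5), Mttp (50.5), Gpam (20.7), Lpin2 (18.7), Tm6sf2 (17.3), Lpin1 (11.0), Dgat1 (5.80), Pnpla3 (0.145) and Mogat1 (0.0898), all in CPM per kb. Gpam, Lpin2 and Tm6sf2 overlapped across libraries, at 9.80 to 44.7, 6.63 to 37.4 and 10.9 to 26.1 CPM per kb, so their order among each other was within their spread. The Lpin1 mean rests largely on HFD + PBS replicate 4, at 63.8 CPM per kb. Lpin1 was above Dgat1 only in that liver, HFD + IgG1 replicate 6 and normal diet replicate 5, so the order of these genes did not hold in most livers. The range over the 9 livers was widest for Lpin1, whose highest level was 34.5 times its lowest, and narrowest among the tested genes for Dgat1, at 1.63 times.

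Gpam (ENSMUSG00000024978, chromosome 19, 55067268 to 55127238, minus strand, mm10) encodes the mitochondrial glycerol-3-phosphate acyltransferase that adds the first acyl chain. Agpat2 (ENSMUSG00000026922, chromosome 2, 26593057 to 26604417, minus strand) encodes the enzyme of the second acyl chain, whose loss causes lipodystrophy. The 250 bases before their RefSeq start (GRCm38.p6) are shown because these neighbours in the pathway both had all HFD + IgG1 livers above all HFD + PBS livers. Dgat2 and Mttp shared this, and the pair was picked with the values known. Capitals mark the matches found on either strand to TCACNCCAC (a sterol response element form), CACGTG (the E-box), CAAAGTCCA (an HNF4 form), CCAAT (the CCAAT box), TATAAA (the TATA box) and GGGCGG (the GC box).
Gpam, chr19:55127239-55127488, minus strand: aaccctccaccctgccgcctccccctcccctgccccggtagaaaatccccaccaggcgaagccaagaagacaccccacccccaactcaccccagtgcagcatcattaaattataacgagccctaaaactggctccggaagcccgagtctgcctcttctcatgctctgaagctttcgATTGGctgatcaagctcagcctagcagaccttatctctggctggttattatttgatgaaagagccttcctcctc
Agpat2, chr2:26604418-26604667, minus strand: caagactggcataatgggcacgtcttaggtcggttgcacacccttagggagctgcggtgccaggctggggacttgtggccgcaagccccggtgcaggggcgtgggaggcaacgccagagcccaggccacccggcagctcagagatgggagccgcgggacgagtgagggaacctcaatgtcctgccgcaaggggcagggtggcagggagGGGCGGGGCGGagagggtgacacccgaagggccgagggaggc
The Gpam window held 1 reversed CCAAT, 74 to 70 bases before the start, a motif present in 33.8% of the 32851 windows of this length in the table. Agpat2 held 2 GGGCGG matches that share a base, between 42 and 32 bases before the start, against 32.7% of windows. Neither window held the sterol response element form, the E-box, the HNF4 form or TATAAA, which were found in 1.05%, 6.02%, 0.384% and 12.4% of windows. A second Gpam start in the same table lies further inside the gene, and its window held a reversed GGGCGG, 16 to 11 bases before the start. The Mttp window held none of these motifs. RefSeq windows were matched for 7 of the 10 genes, and Dgat1, Dgat2 and Tm6sf2 were the others.

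Gpam stood at 298, 109.6 and 179 CPM in HFD + IgG1 replicates 5, 6 and 7, against 107, 65.3 and 93.7 CPM in HFD + PBS replicates 3, 4 and 6, and 150.1, 126 and 114 CPM in normal diet replicates 4, 5 and 6. HFD + IgG1 replicate 5 was the highest of all, HFD + IgG1 replicate 6 stood just above the top PBS liver and all PBS livers were below all normal diet livers. Gpam had a log2 fold change of 1.14 (SE 0.33, 95% interval 0.39 to 1.89) in HFD + IgG1 against HFD + PBS, a 2.21-fold difference with an edgeR adjusted p of 0.14. Without HFD + IgG1 replicate 5 this was 0.66, and without the 3 discordant libraries it was 0.70. Without HFD + IgG1 replicate 6 it was 1.43 and passed edgeR's test, with an adjusted p of 0.00951, while with the other libraries left out in turn it did not pass. That refit keeps only HFD + IgG1 replicates 5 and 7 in the antibody group, and replicate 5 is discordant. Among the refits without 1 library it also called the most genes over the whole table in each comparison. Both limits hold for every call below made without HFD + IgG1 replicate 6. Against normal diet, Gpam was at 0.59 (SE 0.33) in HFD + IgG1 and at -0.55 (SE 0.33) in HFD + PBS, with edgeR adjusted p of 0.745 and 0.369. The first of these was 0.13 without HFD + IgG1 replicate 5.

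Agpat2 had 227, 156 and 232 CPM in HFD + IgG1 replicates 5, 6 and 7, against 137, 125 and 153 CPM in HFD + PBS replicates 3, 4 and 6, and 146, 164 and 222 CPM in normal diet replicates 4, 5 and 6. The HFD + IgG1 and HFD + PBS livers did not overlap, by a narrow gap, and the normal diet livers overlapped with both. Its log2 fold change was 0.57 in HFD + IgG1 against HFD + PBS (SE 0.21, 95% interval 0.10 to 1.04, edgeR adjusted p = 0.16), 0.21 in HFD + IgG1 against normal diet (SE 0.21, adjusted p = 0.838) and -0.36 in HFD + PBS against normal diet (SE 0.21, adjusted p = 0.357). Agpat2 was at 0.52 in the antibody comparison without the 3 discordant libraries, and at 0.73 without HFD + IgG1 replicate 6, where it passed with an adjusted p of 0.0373. It shares 64 bases of exon with Egfl7 on the other strand, and the sources used here do not say whether counting used strand.

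Lpin1 and Lpin2 encode lipins, phosphatidate phosphatases that make diacylglycerol and can also act as coactivators in the nucleus. Lpin1 (ENSMUSG00000020593, chromosome 12, 16535669 to 16610966) is the form induced by fasting and glucocorticoids, and Lpin2 (ENSMUSG00000024052, chromosome 17, 71182560 to 71249817) is an abundant form of liver. Lpin1 had 35.2, 78.0 and 17.9 CPM in HFD + IgG1 replicates 5, 6 and 7, against 51.6, 617 and 55.9 CPM in HFD + PBS replicates 3, 4 and 6, and 27.8, 45.4 and 27.0 CPM in normal diet replicates 4, 5 and 6. HFD + PBS replicate 4, which has both its Y-linked reads and its low Apoe counts, stood apart at 15.3 times the median of the other 8 livers and 7.91 times the highest of them. Its other PBS companions were also above every normal diet liver.

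The log2 fold change of Lpin1 was 2.85 in HFD + PBS against normal diet (SE 1.09, 95% interval 0.30 to 5.40, edgeR adjusted p = 0.206), and 0.71 without HFD + PBS replicate 4. It was -2.46 in HFD + IgG1 against HFD + PBS (SE 1.07, adjusted p = 0.213), and -0.33 without that liver. Lpin1 was at 0.39 (SE 1.02) in HFD + IgG1 against normal diet, and -0.33 without HFD + IgG1 replicate 6. Ppargc1a, a fasting-induced coactivator known to act on Lpin1 and named here after its values were seen, was also high in HFD + PBS replicate 4. It had 41.9 CPM there against 6.67 CPM in replicate 3 and 10.4 CPM in replicate 6. In HFD + IgG1 replicates 5, 6 and 7 it had 9.56, 16.8 and 5.25 CPM, and in normal diet replicates 4, 5 and 6 it had 23.8, 21.5 and 23.3 CPM. The normal diet livers were thus above HFD + PBS replicates 3 and 6 in Ppargc1a but below them in Lpin1. The part of Ppargc1a in the Lpin1 level was not tested.

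Lpin2 had 131, 209 and 81.1 CPM in HFD + IgG1 replicates 5, 6 and 7, against 151, 282 and 171 CPM in HFD + PBS replicates 3, 4 and 6, and 457, 248 and 332 CPM in normal diet replicates 4, 5 and 6. All antibody livers were below all normal diet livers, and the PBS livers overlapped with both groups. Lpin2 had a log2 fold change of -1.30 in HFD + IgG1 against normal diet (SE 0.38, 95% interval -2.15 to -0.44, edgeR adjusted p = 0.561), and -1.45 without the 3 discordant libraries. It was at -0.52 (SE 0.38) in HFD + IgG1 against HFD + PBS and at -0.78 (SE 0.38) in HFD + PBS against normal diet, with edgeR adjusted p of 0.408 and 0.272.

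Read as a ratio within each library, which no scaling factor can alter, Lpin1 over Lpin2 per kb was 0.341, 0.472 and 0.279 in HFD + IgG1 replicates 5, 6 and 7. It was 0.434, 2.77 and 0.413 in HFD + PBS replicates 3, 4 and 6, and 0.0771, 0.232 and 0.103 in normal diet replicates 4, 5 and 6. All 6 livers of mice fed the high-fat diet had a larger share of Lpin1 than all 3 normal diet livers, and in HFD + PBS replicate 4 Lpin1 exceeded Lpin2.

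**Figure D2:**
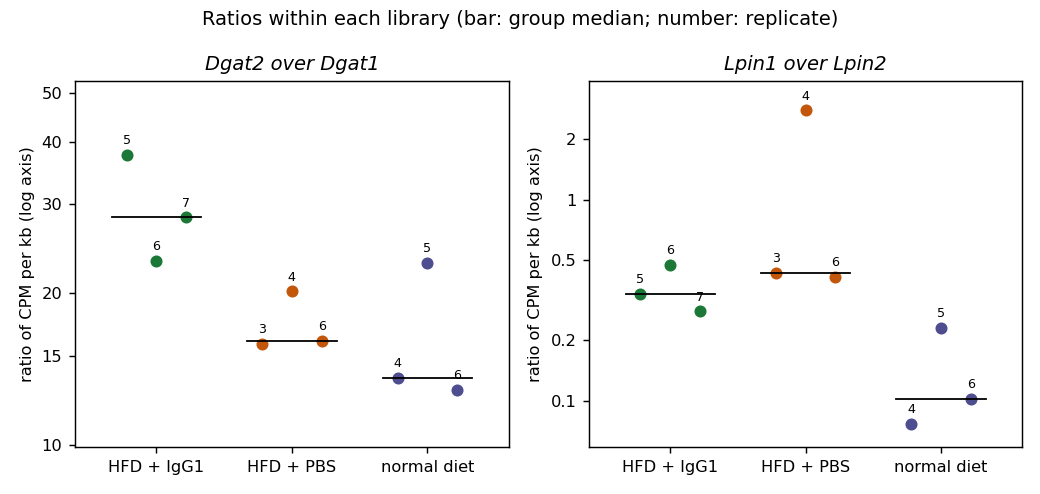
Ratio of CPM per kb (log axis) of Dgat2 over Dgat1 (left) and Lpin1 over Lpin2 (right) in each of the 9 livers, with points for libraries, replicate numbers above them and bars for group medians. Dgat2 over Dgat1 was 23.2 or more in HFD + IgG1 and at most 23.0 in the other groups, and Lpin1 over Lpin2 was at most 0.232 in normal diet and 0.279 or more elsewhere.

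Dgat1 and Dgat2 encode unrelated enzymes that add the last acyl chain. Dgat1 (ENSMUSG00000022555, chromosome 15, 76502015 to 76511953) is known for re-esterifying fatty acids that come from outside or from lipolysis, and Dgat2 (ENSMUSG00000030747, chromosome 7, 99153658 to 99182719) for using newly made ones. Dgat2 had 594, 361 and 503 CPM in HFD + IgG1 replicates 5, 6 and 7, against 321, 351 and 309 CPM in HFD + PBS replicates 3, 4 and 6, and 273, 304 and 277 CPM in normal diet replicates 4, 5 and 6. The 3 groups did not overlap with each other, and the normal diet livers were the lowest.

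The log2 fold change of Dgat2 was 0.57 in HFD + IgG1 against HFD + PBS (SE 0.20, 95% interval 0.13 to 1.01, edgeR adjusted p = 0.147). It was 0.36 without HFD + IgG1 replicate 5, 0.32 without the 3 discordant libraries, and 0.75 without HFD + IgG1 replicate 6, where it passed with an adjusted p of 0.0213. Against normal diet, HFD + IgG1 was at 0.77 (SE 0.20, 95% interval 0.33 to 1.21, edgeR adjusted p = 0.478), a 1.71-fold difference that DESeq2 called with an adjusted p of 0.0289, and it was 0.63 without those 3 libraries. In HFD + PBS against normal diet it was 0.20 (SE 0.20, adjusted p = 0.595).

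Dgat1 had 15.6, 15.4 and 17.6 CPM in HFD + IgG1 replicates 5, 6 and 7, against 20.1, 17.3 and 19.1 CPM in HFD + PBS replicates 3, 4 and 6, and 20.0, 13.1 and 21.3 CPM in normal diet replicates 4, 5 and 6. All 3 groups overlapped. Dgat1 was at -0.21 in HFD + IgG1 against HFD + PBS (SE 0.19, 95% interval -0.64 to 0.21), at -0.16 in HFD + IgG1 against normal diet (SE 0.19, 95% interval -0.59 to 0.27) and at 0.05 in HFD + PBS against normal diet (SE 0.19, 95% interval -0.37 to 0.48), and the sign of the last turned without normal diet replicate 5. Within each library Dgat2 over Dgat1 per kb was 37.7, 23.2 and 28.3 in HFD + IgG1 replicates 5, 6 and 7. That ratio was 15.8, 20.2 and 16.1 in HFD + PBS replicates 3, 4 and 6, and 13.6, 23.0 and 12.9 in normal diet replicates 4, 5 and 6. The antibody livers had the highest ratios, with HFD + IgG1 replicate 6 only just above normal diet replicate 5.

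Mogat1 (ENSMUSG00000012187, chromosome 1), a monoacylglycerol acyltransferase that gives diacylglycerol by another route, had 2, 0 and 8 counts in HFD + IgG1 replicates 5, 6 and 7, against 0, 2 and 1 in HFD + PBS replicates 3, 4 and 6 and 1, 3 and 4 in normal diet replicates 4, 5 and 6. Pnpla3 (ENSMUSG00000041653, chromosome 15), a droplet-bound protein with lipase and acyltransferase activity and the mouse form of a human steatosis gene, had 2, 8 and 1 counts in HFD + IgG1, against 9, 3 and 9 in HFD + PBS and 1, 2 and 3 in normal diet, in the same order of replicates. With no filter on low counts, edgeR put Pnpla3 at 1.53 (SE 1.04) in HFD + PBS against normal diet and at -0.70 (SE 0.97) in HFD + IgG1 against HFD + PBS, and the adjusted p values were 0.549 and 0.733. Pnpla3 shares 105 bases of exon with Gm49513 on the same strand, and Mogat1 shares 200 with BC035947 on the other strand.

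Mttp (ENSMUSG00000028158, chromosome 3, 138089854 to 138144968, minus strand) encodes the microsomal triglyceride transfer protein, which puts lipid onto apolipoprotein B and without which VLDL is not made. Mttp had 387, 275 and 313 CPM in HFD + IgG1 replicates 5, 6 and 7, against 195, 252 and 246 CPM in HFD + PBS replicates 3, 4 and 6, and 392, 327 and 434 CPM in normal diet replicates 4, 5 and 6. The PBS livers were the lowest and overlapped with neither other group, whereas the antibody and normal diet livers overlapped.

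In HFD + PBS against normal diet the log2 fold change of Mttp was -0.74 (SE 0.20, 95% interval -1.17 to -0.30, edgeR adjusted p = 0.111), and DESeq2 called it with an adjusted p of 0.0151. It was -0.86 without the 3 discordant libraries. Mttp was at 0.49 in HFD + IgG1 against HFD + PBS (SE 0.20, 95% interval 0.06 to 0.93, edgeR adjusted p = 0.175), 0.31 without HFD + IgG1 replicate 5 and 0.35 without those 3 libraries. For HFD + IgG1 against normal diet it was -0.24 (SE 0.20, 95% interval -0.68 to 0.19, edgeR adjusted p = 0.81). Exons of Trmt10a and Gm43691 overlap 589 bases of Mttp exon on the other strand.

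Tm6sf2 (ENSMUSG00000036151, chromosome 8, 70072924 to 70080066) encodes a membrane protein of the endoplasmic reticulum that helps enlarge VLDL particles. It had 25.8, 40.4 and 26.8 CPM in HFD + IgG1 replicates 5, 6 and 7, against 28.1, 49.6 and 43.5 CPM in HFD + PBS replicates 3, 4 and 6, and 29.8, 31.2 and 20.7 CPM in normal diet replicates 4, 5 and 6. All groups overlapped, and the PBS mean was the highest. Its log2 fold change was -0.38 in HFD + IgG1 against HFD + PBS (SE 0.26, edgeR adjusted p = 0.38), 0.19 in HFD + IgG1 against normal diet (SE 0.26, adjusted p = 0.881) and 0.57 in HFD + PBS against normal diet (SE 0.26, 95% interval -0.01 to 1.15, adjusted p = 0.246). Mttp and Tm6sf2 thus had fitted differences of opposite sign in each comparison.

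**Figure D3:**
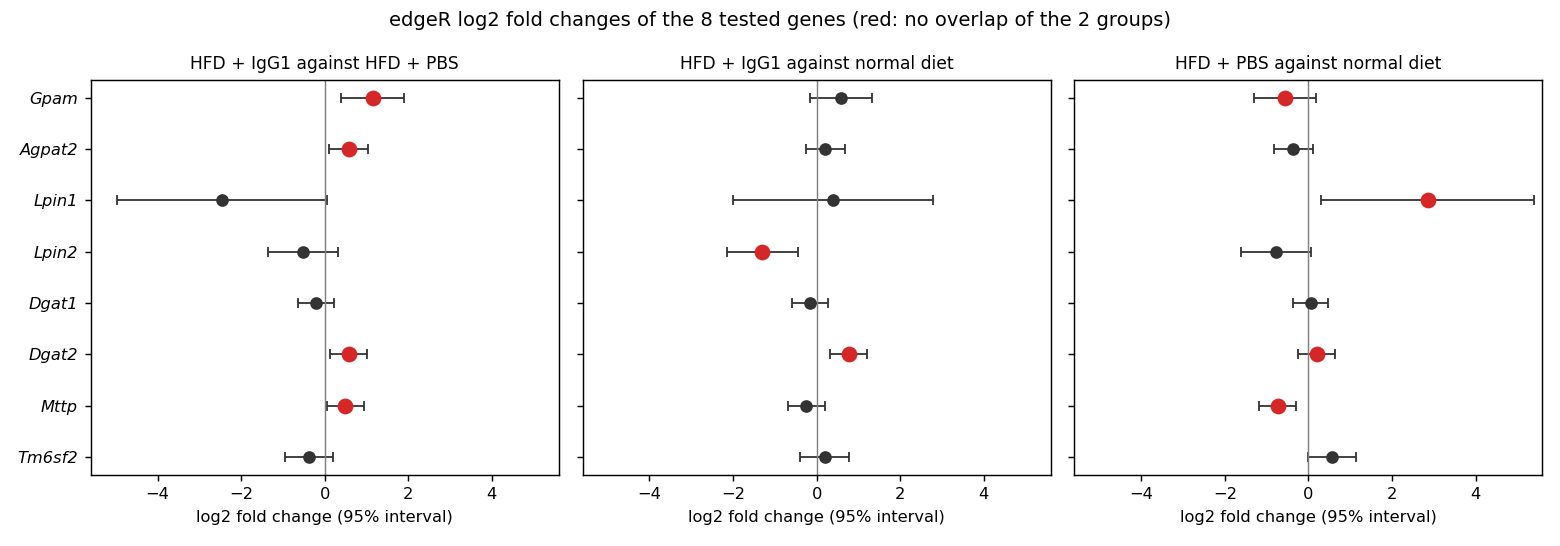
edgeR log2 fold changes (points) with 95% intervals (bars) of the 8 tested genes in the 3 comparisons, with red points where the 2 groups do not overlap. Gpam, Agpat2, Dgat2 and Mttp lay between 0.49 and 1.14 in HFD + IgG1 against HFD + PBS, and the Lpin1 intervals were the widest.

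In the other genes of the pathway, 35 in number, 0 passed edgeR's adjusted test in any comparison. Of 16 other genes of VLDL assembly and secretion, 9 were higher and 0 lower without overlap in HFD + IgG1 against HFD + PBS, against 15.3% and 11.2% of all genes tested, and 15 of 16 were positive, where 47.2% of all genes tested were negative. Their median was 0.41 on the log2 scale. Without the 3 discordant libraries 11 were higher and 0 lower without overlap, against 22.8% and 18.2% of all genes tested, 15 of 16 were positive and the median was 0.33. At an unadjusted edgeR p under 0.05, 8 of the 16 were higher (12.6% of all genes tested), and 3 were without HFD + IgG1 replicate 5 (5.28%), 5 without HFD + IgG1 replicate 7 (6.68%), 4 without HFD + PBS replicate 3 (8.17%) and 4 without the 3 discordant libraries (4.08%). In HFD + PBS against normal diet, 8 were lower and 0 higher without overlap, against 15.3% and 13.0%, and 14 of 16 were negative, against 50.3% of all genes tested, with a median of -0.39. Without the 3 discordant libraries 8 were lower and 0 higher, against 26.2% and 25.2%, and the median was -0.48. Only 1 was lower and 0 higher without overlap in HFD + IgG1 against normal diet, against 6.41% and 5.54%, and the median was 0.07. That median was -0.06 without the 3 discordant libraries. DESeq2 called 6 of the 35 genes in HFD + IgG1 against HFD + PBS, 10 in HFD + PBS against normal diet and 0 in HFD + IgG1 against normal diet. Limma-voom called 0 in each, and edgeR called 11 in the first of these without HFD + IgG1 replicate 6. These counts are to be read beside the totals over all genes tested in the same settings, given at the end.

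Apob, the structural protein of VLDL, had 11651, 7738 and 8870 CPM in HFD + IgG1 replicates 5, 6 and 7, against 5260, 6566 and 5765 CPM in HFD + PBS replicates 3, 4 and 6, and 12408, 11557 and 10457 CPM in normal diet replicates 4, 5 and 6. As with Mttp, the PBS livers were the lowest without overlap. Apob was at 0.68 in HFD + IgG1 against HFD + PBS (SE 0.26, edgeR adjusted p = 0.161; 0.46 without HFD + IgG1 replicate 5 and 0.45 without the 3 discordant libraries), at -0.28 in HFD + IgG1 against normal diet (SE 0.25, adjusted p = 0.82) and at -0.97 in HFD + PBS against normal diet (SE 0.26, adjusted p = 0.11). Fitm2, which helps form lipid droplets, had 64.2, 35.7 and 68.5 CPM in HFD + IgG1 replicates 5, 6 and 7, against 25.1, 28.6 and 36.3 CPM in HFD + PBS replicates 3, 4 and 6, and 70.8 to 98.4 CPM in normal diet. It was at -1.55 in HFD + PBS against normal diet (SE 0.26, edgeR adjusted p = 0.0662).

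Lpcat3, which puts polyunsaturated chains into phospholipids of the nascent particle, was nearly the same in all PBS livers, at 51.5 ± 0.482 CPM, against 79.1 ± 1.35 CPM in normal diet (-0.62, SE 0.14, edgeR adjusted p = 0.0786), and was at 68.8 ± 10.6 CPM in HFD + IgG1. Mia3, a cargo receptor for large particles, was at 0.53 (SE 0.17) in HFD + IgG1 against HFD + PBS and at -0.53 (SE 0.17) in HFD + PBS against normal diet. The lipases Ces1d and Aadac, which are known to release stored fatty acids for VLDL, were at 2.06 (SE 0.52) and 1.25 (SE 0.34) in HFD + IgG1 against HFD + PBS, both at an adjusted p of 0.14 by edgeR. Ces1d had 1163, 293 and 557 CPM in HFD + IgG1 replicates 5, 6 and 7, against 111, 193 and 179 CPM in HFD + PBS replicates 3, 4 and 6. Replicate 5 was the highest, and without it Ces1d was at 1.36 and Aadac at 1.03, and without the 3 discordant libraries at 1.43 and 1.05. Without HFD + IgG1 replicate 6 edgeR called Ces1d, Aadac and Fitm2 higher in HFD + IgG1 than in HFD + PBS, with adjusted p of 0.00981, 0.00556 and 0.0078, and Fitm2 and Lpcat3 lower in HFD + PBS than in normal diet, with 0.0137 and 0.0448. Between HFD + IgG1 and normal diet the smallest p values of this list were those of Fitm2, Lpcat3, Aadac and Surf4, a cargo receptor of the endoplasmic reticulum, at -0.64 (SE 0.25), -0.20 (SE 0.14), 0.45 (SE 0.33) and 0.21 (SE 0.16). Aadac was at 0.07 there without the 3 discordant libraries.

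Of 19 other genes of glycerolipid synthesis, 2 were higher and 3 lower without overlap in HFD + IgG1 against HFD + PBS (15.3% and 11.2% of all genes tested), and 4 were higher and 7 lower in HFD + PBS against normal diet (13.0% and 15.3%). Their medians were -0.0048 and -0.12. Between HFD + IgG1 and normal diet 0 were higher and 2 lower (5.54% and 6.41%), with a median of -0.16. Without the 3 discordant libraries 7 were higher and 3 lower in HFD + IgG1 against HFD + PBS (22.8% and 18.2%), 2 higher and 7 lower in HFD + IgG1 against normal diet (14.0% and 16.6%), and 5 higher and 8 lower in HFD + PBS against normal diet (25.2% and 26.2%). The genes that supply glycerol 3-phosphate had their lowest group means in PBS livers. Gpd1, glycerol-3-phosphate dehydrogenase, averaged 282 ± 109 CPM in HFD + IgG1, 135 ± 33.5 CPM in HFD + PBS and 341 ± 19.8 CPM in normal diet, and Gk, glycerol kinase, averaged 127 ± 24.0, 81.1 ± 20.9 and 176 ± 47.7 CPM in the same order (SD, n = 3 each). In HFD + PBS against normal diet Gpd1 was at -1.34 (SE 0.30, edgeR adjusted p = 0.0812) and Gk at -1.12 (SE 0.25, adjusted p = 0.0808). With HFD + IgG1 replicate 6 left out, edgeR called Gpd1, Gk and Gpat4 in that comparison, with adjusted p of 0.0184, 0.0383 and 0.0413.

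Gpat4, the endoplasmic reticulum counterpart of Gpam, was at -0.98 (SE 0.25) and Lclat1, an acyltransferase of cardiolipin remodelling, at -0.61 (SE 0.16) in HFD + PBS against normal diet. Within libraries Gpam over Gpat4 per kb was 1.60, 0.917 and 0.900 in HFD + IgG1 replicates 5, 6 and 7, 1.09, 0.528 and 0.760 in HFD + PBS replicates 3, 4 and 6, and 0.655, 0.776 and 0.394 in normal diet replicates 4, 5 and 6. The antibody livers did not overlap with the normal diet livers in this ratio, and they did overlap with the PBS livers.

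Genes that send phosphatidate or diacylglycerol to phospholipids differed in sign. Cds1, a CDP-diacylglycerol synthase, averaged 1.57 ± 1.06 CPM in HFD + IgG1 and 4.91 ± 0.254 CPM in HFD + PBS (SD, n = 3 each; -1.62, SE 0.43, edgeR adjusted p = 0.14). Cds2, of the same list and named here after its values were seen, was far more abundant and nearly equal. It averaged 167 ± 31.4 CPM in HFD + IgG1 and 167 ± 8.55 CPM in HFD + PBS. Selenoi and Chpt1, the last enzymes of phosphatidylethanolamine and phosphatidylcholine synthesis from diacylglycerol, were at 0.76 (SE 0.25) and 0.92 (SE 0.31) and Gpd1 at 1.06 (SE 0.30) in the same comparison. On leaving out HFD + IgG1 replicate 6, edgeR called Cds1, Selenoi, Chpt1 and Gpd1 there, with adjusted p of 0.00556, 0.0209, 0.0273 and 0.00554. Between HFD + IgG1 and normal diet the smallest p values of this list were those of Gpat3, Agpat3, Lclat1 and Gk, at -1.19 (SE 0.45), -0.38 (SE 0.17), -0.36 (SE 0.16) and -0.47 (SE 0.25). Gpat3 was at -0.64 without the 3 discordant libraries.

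**Figure D4:**
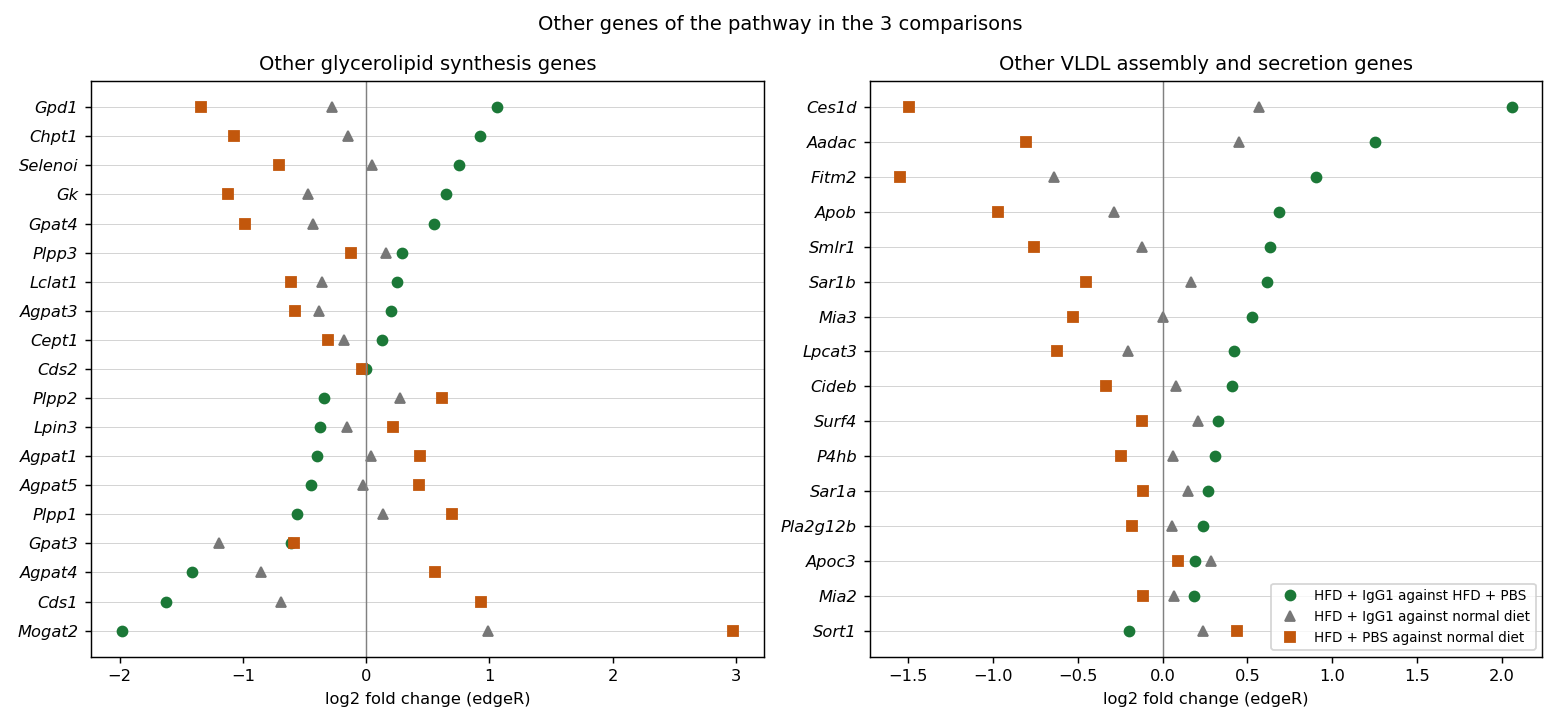
edgeR log2 fold changes of 19 other glycerolipid synthesis genes (left) and 16 other VLDL genes (right), with circles for HFD + IgG1 against HFD + PBS, triangles for HFD + IgG1 against normal diet and squares for HFD + PBS against normal diet. Of the 16 VLDL genes, 15 were positive in HFD + IgG1 against HFD + PBS and 14 negative in HFD + PBS against normal diet, 2 comparisons that share the HFD + PBS livers.

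Of 17 known regulators of these genes, 0 passed edgeR's adjusted test in any comparison. Without overlap, 4 were higher and 1 lower in HFD + IgG1 against HFD + PBS (15.3% and 11.2% of all genes tested), 2 higher and 4 lower in HFD + IgG1 against normal diet (5.54% and 6.41%), and 0 higher and 5 lower in HFD + PBS against normal diet (13.0% and 15.3%). Without the 3 discordant libraries these were 6 and 2 (22.8% and 18.2%), 3 and 5 (14.0% and 16.6%), and 2 and 7 (25.2% and 26.2%). Srebf1, which encodes SREBP-1, had 311, 102 and 213 CPM in HFD + IgG1 replicates 5, 6 and 7, against 97.2, 74.0 and 54.8 CPM in HFD + PBS replicates 3, 4 and 6, and 49.0, 64.6 and 52.5 CPM in normal diet replicates 4, 5 and 6. The antibody livers were above all others, with HFD + IgG1 replicate 5 highest and replicate 6 lowest. Gpam and Dgat2 had this order too, but so did Mttp, Apob, Ces1d and the hepatocyte markers Alb, Apoa1, Serpinc1 and Apoh. The hepatocyte markers Ahsg, Fgb and Trf had the reverse order, with replicate 6 highest and replicate 5 lowest. Agpat2 and the hepatocyte markers Cps1, Ass1 and Tat were highest in replicate 7. The order is therefore not particular to Srebf1, Gpam and Dgat2, and a link between them was not tested. Srebf1 was at 1.47 in HFD + IgG1 against HFD + PBS (SE 0.37, edgeR adjusted p = 0.14) and at 1.92 in HFD + IgG1 against normal diet (SE 0.37, adjusted p = 0.414). Without HFD + IgG1 replicate 5 these were 1.02 and 1.49, and without the 3 discordant libraries 0.83 and 1.61. They were 1.80 and 2.25 without HFD + IgG1 replicate 6, and edgeR called both, with adjusted p of 0.00449 and 0.0333. Insig1, a sterol-regulated brake on SREBP processing, was at 1.77 (SE 0.35) in HFD + IgG1 against normal diet, and its homologue Insig2 at -0.50 (SE 0.19).

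Ppara, the fatty acid receptor that drives oxidation, averaged 95.3 ± 39.4 CPM in HFD + IgG1, 36.9 ± 6.37 CPM in HFD + PBS and 116 ± 29.9 CPM in normal diet (SD, n = 3 each). It was at 1.37 (SE 0.31, edgeR adjusted p = 0.14) in HFD + IgG1 against HFD + PBS, and at 1.00 without HFD + IgG1 replicate 5. Leaving out HFD + IgG1 replicate 6, edgeR called Ppara in this comparison and in HFD + PBS against normal diet, with adjusted p of 0.00464 and 0.0137. Nr1h2, the ubiquitous liver X receptor, was at -0.35 (SE 0.13) in HFD + IgG1 against HFD + PBS. In HFD + PBS against normal diet Creb3l3, a secreted-protein and lipid regulator of the endoplasmic reticulum, was at -1.25 (SE 0.25, edgeR adjusted p = 0.078; 0.0347 without HFD + IgG1 replicate 6 and 0.0348 without HFD + PBS replicate 6) and Xbp1, a factor of the unfolded protein response, at 0.69 (SE 0.27). Creb3l3 was at -0.73 (SE 0.25) in HFD + IgG1 against normal diet. Mlxipl, which encodes the glucose-responsive ChREBP, overlapped in all comparisons and was at 0.38 (SE 0.33), -0.09 (SE 0.33) and -0.46 (SE 0.33) in HFD + IgG1 against HFD + PBS, HFD + IgG1 against normal diet and HFD + PBS against normal diet.

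Markers of immune cells also differed between these livers. All 6 of 6 neutrophil markers had counts and summed to 12.8, 468 and 19.2 CPM in HFD + IgG1 replicates 5, 6 and 7, against 2939, 375 and 1132 CPM in HFD + PBS replicates 3, 4 and 6, and 34.1 to 148 CPM in normal diet. All 6 of 6 recruited macrophage markers had counts and summed to 124 to 734 CPM in HFD + IgG1, 643 to 1431 CPM in HFD + PBS and 313 to 395 CPM in normal diet, with HFD + IgG1 replicate 6 the highest antibody liver in both lists. All 7 of 7 Kupffer cell markers had counts and summed to 678 to 2446 CPM, 2370 to 2938 CPM and 1710 to 2248 CPM in the same order of groups. In that order, T and NK cell markers summed to 9.96 to 18.2, 19.0 to 54.8 and 12.4 to 25.2 CPM. B cell markers, at 3.20 to 9.99, 4.99 to 11.6 and 7.38 to 9.34 CPM, overlapped in all groups. HFD + IgG1 replicate 6 was also the antibody liver nearest to the PBS livers in Gpam, Agpat2, Dgat2 and Mttp. The part of cell composition in these differences, and in those of the other VLDL genes and the regulators, was not tested.

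Markers of other tissues that express these genes were at low levels. Of the 7 adipocyte markers 6 had counts, the sum was 17.1 to 30.6 CPM in HFD + IgG1, 31.2 to 45.0 CPM in HFD + PBS and 17.3 to 19.9 CPM in normal diet, and Lep was at 0 in all libraries. Fabp4 and Lipe made up most of each sum. Fabp4 had 4.71 to 19.6, 18.9 to 35.0 and 5.79 to 8.06 CPM in the same order of groups, and Lipe overlapped in all groups. Adipoq, Plin1 and Retn had at most 1 count in any library. Cfd was highest in HFD + IgG1 replicates 7 and 5, at 4.77 and 1.71 CPM. Of the 7 skeletal muscle markers 2 had counts, with a sum of at most 1.15 CPM, in HFD + PBS replicate 3. Of the 7 pancreatic acinar markers 3 had counts, with a sum of 6.09 to 21.5 CPM in HFD + IgG1, 3.76 to 7.95 CPM in HFD + PBS and 5.92 to 9.95 CPM in normal diet, and Cpa1, Cel, Pnlip and Cela3b were at 0 throughout. Of the 6 enterocyte markers 4 had counts, with Sis and Alpi at 0 throughout, and the sum was 11.8 to 35.3 CPM in HFD + IgG1, 7.26 to 22.3 CPM in HFD + PBS and 12.9 to 53.6 CPM in normal diet. Fabp2 made up most of the highest sum, with 53.0 CPM in normal diet replicate 5. Vil1 and Lct were highest in HFD + PBS replicate 3, at 1.41 and 0.486 CPM, where the other 8 livers had at most 0.571 and 0.206 CPM. Mogat2, the monoacylglycerol acyltransferase of the intestine and one of the 19 other glycerolipid genes, named here after its values were seen, was also highest in that liver, at 8.57 CPM where the other 8 had 0 to 2.62 CPM. The part of these markers in the results was not tested.

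The genes whose profile over the 9 livers was nearest to that of Lpin1, among 10121 named genes with a mean of at least 5 CPM, were Tiparp, Tifa, Acpp and Nrg4, with a root mean square difference of centred log2 CPM of 0.575 to 0.609, where the Lpin1 profile itself has a root mean square of 1.39. Nearest to Lpin2 were Crebrf, C9orf72, Nceh1 and Klhl24, at 0.241 to 0.308, where Lpin2 has 0.713. Those for Lpin1 rest largely on HFD + PBS replicate 4.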

How the data were processed

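Per the labels, total RNA was taken with Trizol and 1 µg per liver entered a NEBNext Ultra library. The authors deposited whole-number counts per Ensembl gene, not normalised. The submitters' processing notes name mm10 and Bowtie 0.12.2 without their roles, while the sources used here give neither the counting program nor its strand setting. Names and union exon lengths came from GENCODE M21, on the same assembly, and named 54495 of 54532 IDs. Quasi-likelihood tests (glmQLFit, robust, and glmQLFTest) of edgeR 4.0.16 in R 4.3.3 used TMM scaling, group means over all 9 libraries and genes kept by filterByExpr (minimum count 10, minimum total 15). Their two-sided p-values were adjusted by Benjamini-Hochberg over 14763 genes, with a threshold of 0.05. Each library is described as 1 liver, so p-values measure the spread between these livers. SE is the unshrunk log2 fold change over the root of F, fold changes are edgeR's, and 95% intervals use its degrees of freedom. Alternatives used DESeq2 1.42.0, limma 3.58.1 (voom), other factors and filters, fewer libraries, a replicate block and a covariate for Y-linked reads. Refits of the other lists and their named genes without single libraries, or without the 3 discordant libraries, were added after the data were seen. The workflow was checked on simulated counts. A floor of 3 counts covers counting error only.

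The genes, the lists and the naming rule were chosen with earlier results of these data known. The rule names the 10 genes, 5 further genes (Apoe, Apob, Srebf1, Mlxipl, Ppara), and per list and comparison the genes past the threshold or the 4 with the smallest p. One gene that the rule names is not reported here.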

Additional observations from a re-analysis of the deposited data

How the results depend on the processing

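Of 456 refits of the 24 member fold changes, 443 kept their direction and side of the threshold, 6 became significant and 7 changed sign, all 7 of them uncalled. The main edgeR fit called 0 of the 14763 genes tested in each comparison. On the same genes DESeq2 called 1270 in HFD + IgG1 against HFD + PBS, 101 in HFD + IgG1 against normal diet and 1138 in HFD + PBS against normal diet. With no filter on low counts edgeR called 57, 6 and 274, and with only the 6 libraries compared 0, 3 and 184. Without the 3 discordant libraries it called 0, 0 and 2. With each library left out in turn the counts ran from 0 to 2356, 0 to 6 and 0 to 576, with the highest in each without HFD + IgG1 replicate 6. DESeq2 called 1 of the members in each comparison, and with each library left out edgeR called 0 to 3 in HFD + IgG1 against HFD + PBS and 0 in the others. Of the 35 other pathway genes DESeq2 called 6, 0 and 10. In HFD + PBS against normal diet edgeR called 4 of them with no filter and 2 with only the 6 libraries compared, and with each library left out 0 to 11, 0 and 0 to 6. RLE and upper-quartile factors, limma-voom, a minimum of 1 CPM in 3 libraries and the covariate for Y-linked reads left all these counts at 0.

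The replicate block, on numbers that pair no mice per the labels (correlations of -0.494 to 0.007 between same-numbered livers of 2 groups), called 0 genes in each comparison. It put Dgat1 at -0.0928 in HFD + PBS against normal diet, Lpin2 at 0.12 in HFD + IgG1 against HFD + PBS and Agpat2 at -0.0103 in HFD + IgG1 against normal diet. Dgat1 in HFD + PBS against normal diet was at -0.12 without the 3 discordant libraries and ran from -0.14 to 0.18 with each library left out. In HFD + IgG1 against normal diet, without each library in turn, Lpin1 ran from -0.33 to 0.76, Tm6sf2 from -0.0455 to 0.30 and Mlxipl, in a refit chosen after seeing the data, from -0.3432 to 0.0704. The cause of these turns was not tested. Depth limits Pnpla3 and Mogat1, at 0 to 9 counts per library.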
